A study of Mus musculus with 9 samples.

Results

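Type I interferon-stimulated genes (ISGs) are the antiviral genes that cells switch on when interferon alpha or beta reaches them. The 37 ISGs described here were picked by name as members of the antiviral interferon programme, and were read as rows of a count table of 56691 mouse genes. All 37 were found, and all 37 were among the 20204 genes that passed the filter on low counts. They were followed in mouse liver macrophages, sorted as cells positive for F4/80 and CD11b, in groups taken 0 h, 24 h or 48 h after partial hepatectomy (PHx), an operation that takes out part of the liver and so starts its regrowth.

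Bulk RNA was sequenced in 3 libraries at 0 h, 3 at 24 h and 3 at 48 h after PHx. The mice were young adult C57BL/6 males by the study's methods, and the livers were perfused with collagenase before sorting. No altered gene, drug or other treatment is named for any of these libraries, so the surgery and the time since it are the differences named between the groups. The methods do not give the days of surgery, sorting or library preparation, so a batch that goes with time cannot be told apart from it. Whether each library is a separate mouse is not stated in the labels or methods, and p-values measure only how these libraries vary, which may be technical. Levels are given as CPM, which is a gene's counts per 1000000 counts of a library after scaling, and they are compared between libraries and not between genes. A gene is called higher or lower where the adjusted p of edgeR's quasi-likelihood test over all genes tested was under 0.05.

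In the interferon response, interferon alpha or beta binds the receptor made of IFNAR1 and IFNAR2, the kinases JAK1 and TYK2 are switched on at the receptor, and a complex that holds STAT2 and IRF9 binds a short element in the promoters of ISGs. The products then act on the virus and the cell at many steps: IFIT proteins bind foreign RNA, OAS enzymes make the messenger that turns on RNase L, Mx proteins trap viral particles, tetherin holds new virions at the membrane, and USP18 and SOCS1 damp the signal. In liver, macrophages are both a source and a target of type I interferon.

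The element bound by the complex with STAT2 and IRF9 has a core of paired GAAA repeats, so the RefSeq promoter windows (GRCm38.p6, 250 bases before to 50 after the start) were searched for GAAANNGAAA on both strands, with overlapping matches kept. Of the members, 27 had a window and 14 of these held a match, or 51.9%, against 3.99% of the 27025 genes with a window. In 10 the match lay before the start and in 4 (Ifih1, Ddx58, Ifitm3 and Eif2ak2) only past it. Dhx58, Ifi27, Mx1, Mx2, Oas2, Parp14, Parp9, Rtp4, Usp18 and Zbp1 were not among the 27. The stretches of the members that the results at 48 h turn on are shown so that those that went up and those that went down can be set side by side. They run from 5′ to 3′ along the strand of the gene with each match in capitals, and TTTCNNTTTC is the same motif on the other strand.
Ifit3 (chr19:34583357-34583432, plus strand): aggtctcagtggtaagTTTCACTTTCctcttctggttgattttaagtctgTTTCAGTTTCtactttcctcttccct
Rsad2 (chr12:26456547-26456588, minus strand): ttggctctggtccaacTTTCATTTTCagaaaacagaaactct
Bst2 (chr8:71537571-71537618, minus strand): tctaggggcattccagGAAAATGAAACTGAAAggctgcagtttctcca
Isg15 (chr4:156200859-156200912, minus strand): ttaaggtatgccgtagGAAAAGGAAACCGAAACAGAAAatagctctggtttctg
Oas1a (chr5:120907526-120907561, minus strand): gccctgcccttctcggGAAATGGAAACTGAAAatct
Trim30a (chr7:104465204-104465245, minus strand): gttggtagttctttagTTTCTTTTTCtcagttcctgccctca
Ifit3b, the neighbour and near copy of Ifit3, carried the same stretch on the plus strand at chr19:34607753-34607828, with 76 of 76 bases identical. Ifit3, Ifit3b, Rsad2 and Bst2 were called higher at 48 h, and Isg15, Oas1a and Trim30a lower, as described below. Of the 8 members called higher at 48 h against either earlier time, 6 had a window and 4 of these a match. Of the 7 called lower, 5 had a window and 4 a match, and of the 22 members not called, 16 had a window and 6 a match. A match is a description of these letters and does not show that a factor binds there.

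The libraries differed in more than time. Their counts summed to 53297943 to 67951168. Genes of the mitochondrial genome held 7.06% to 17.9% of a 48 h library, 2.37% to 3.72% of a 24 h library and 3.01% to 4.53% of a 0 h library. Libraries of the 48 h group varied more among themselves (biological coefficient of variation 0.821) than those of 24 h (0.437) or 0 h (0.417). Of 13 macrophage markers, 1 was called higher and 8 lower at 48 h against 0 h, with a median log2 fold change of -1.62, and all 13 were above 0 in every library. The macrophage list summed to 31015, 13627 and 18150 CPM in the 48 h libraries, against 106130, 98426 and 82713 CPM in the 0 h libraries and 104826, 55914 and 77494 CPM in the 24 h libraries. Over the same comparison all 20 markers of liver endothelial cells, 12 of 15 of B cells, 12 of 16 of T and NK cells, 6 of 10 of conventional dendritic cells and 4 of 11 of plasmacytoid dendritic cells were called higher and none lower. Kupffer cells are the resident macrophages of the liver, and 5 of their 10 markers were called higher and 0 lower, with a median log2 fold change of 2.03, in contrast to the general macrophage list. The Kupffer cell list summed to 5271, 1405 and 2270 CPM in the 48 h libraries, against 1041, 500.4 and 1172 CPM in the 0 h libraries and 2314, 1810.3 and 2403 CPM in the 24 h libraries. The endothelial list summed to 13683 to 14643 CPM at 48 h, against 653 to 797 CPM at 0 h and 989 to 1579 CPM at 24 h. In bulk RNA, fewer cells of a type and less RNA per cell cannot be told apart, and a gene of the 48 h libraries may be read from any of these cells.

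**Figure D1:**
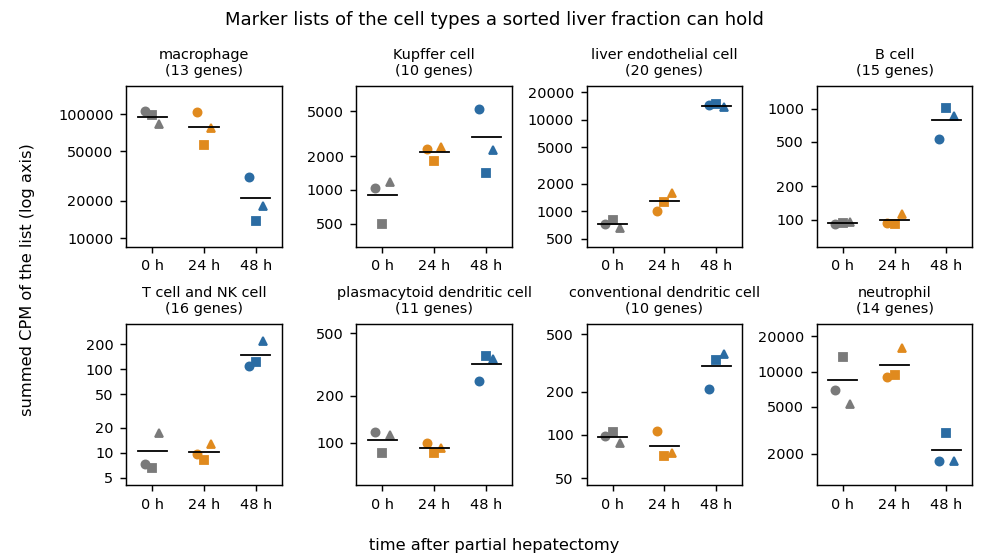
Summed CPM (log axis) of marker lists for 8 cell types in each library of the 0 h, 24 h and 48 h groups, with a circle, square and triangle for replicates 1, 2 and 3 and a line at the mean of the 3 libraries. The sums of the macrophage and neutrophil lists were lowest at 48 h, those of the endothelial, B cell, T and NK cell and both dendritic cell lists highest at 48 h, and the 48 h libraries spanned 1405 to 5271 CPM for the Kupffer cell list. The neutrophil sum does not stand for each marker, as 3 of 14 were called higher and 3 lower at 48 h against 0 h. Nor does the macrophage sum, in which Lyz2 had the most counts, as 1 of 13 was called higher and 8 lower.

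At 24 h after PHx most members were a little above their 0 h level and none passed the test. At 48 h against 0 h, 8 members were higher (Ifi44, Ifit3, Ifit3b, Rsad2, Isg20, Ifi27, Bst2 and Mx1), or 21.6%, where 9.86% of all genes were. Ifitm3, Oas1a and Oas2, or 8.11%, were lower in libraries scaled by TMM, a share near the 8.95% of all genes (Oas1a and Oas2 had estimates above 0 in libraries scaled on macrophage markers, but below the median of all genes, which was 1.48 on that scale). The mean over the 3 libraries was highest at 0 h for 1 member, at 24 h for 20 and at 48 h for 16, and lowest at 0 h for 20 members, at 24 h for 3 and at 48 h for 14.

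**Figure D2:**
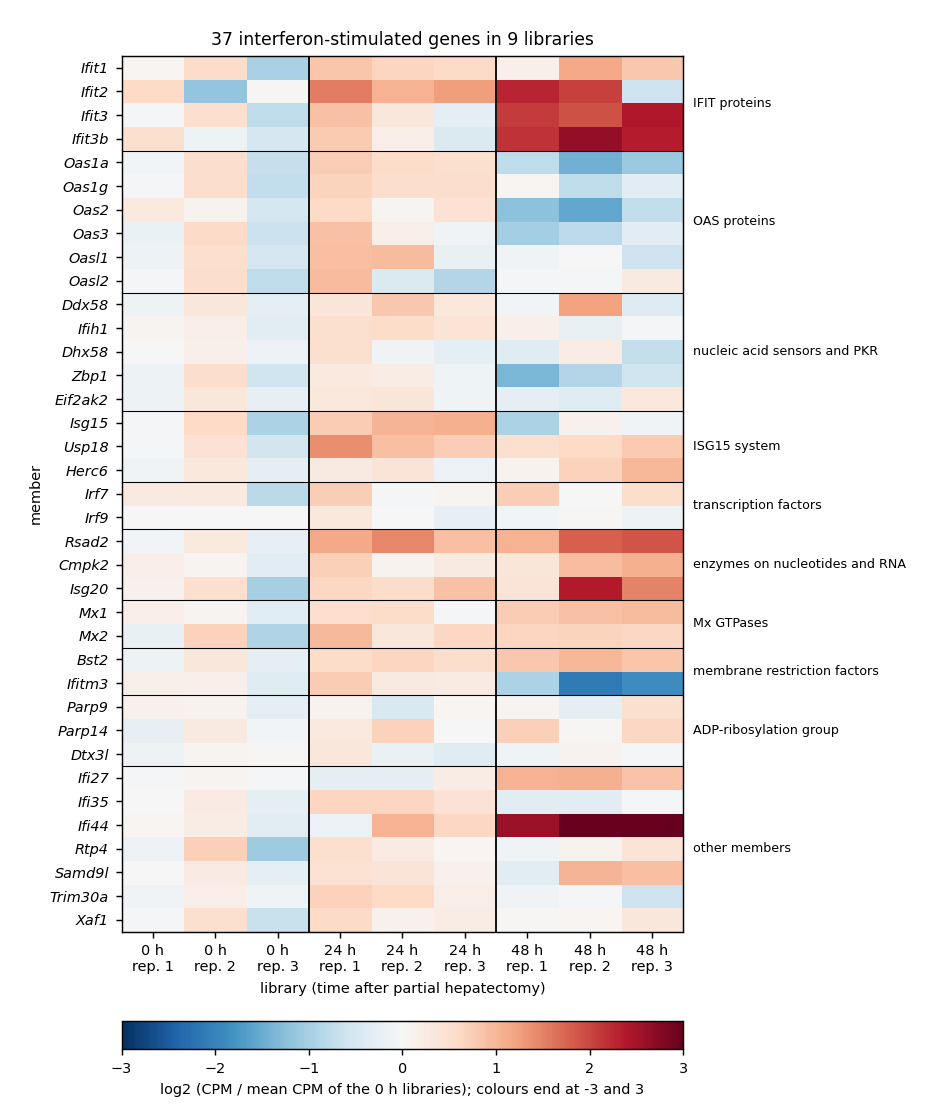
Level of each of the 37 members in each of the 9 libraries as log2 of its CPM over its mean CPM at 0 h (red above, blue below), with the members grouped by role and the times from left to right. The 24 h columns are mostly pale red, and the 48 h columns hold both the deepest reds (Ifi44, Ifit3, Ifit3b) and the deepest blues (Ifitm3, Oas2, Oas1a).

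For 24 h against 0 h the test called 0 of the 37 members higher, where it called 0.0495% of all genes tested, and 0 lower, against 0.0297% of all genes. The median log2 fold change of the members was 0.38, and -0.03 over all genes tested, with an estimate above 0 for 34 of the 37 (30 with libraries scaled on macrophage markers, 33 with upper-quartile factors). At an unadjusted p under 0.05 edgeR had 7 members higher, against 3.89% of all genes, and 0 lower, against 2.72%. DESeq2 called 2 members higher, Rsad2 (adjusted p = 0.00255) and Usp18 (adjusted p = 0.0134), against 1.32% of all genes, and 0 lower, against 0.53%. limma-voom called 0 members higher, against 0.0396% of all genes, and 0 lower, against 0.0099%. In 10 of the 37, or 27.0%, the 24 h libraries lay without overlap above those of 0 h, as for 8.37% of all genes, and in 0 without overlap below, against 8.92% of all genes. Those 10 were Ifit1, Ifit2, Isg15, Isg20, Rsad2, Usp18, Ifih1, Bst2, Ifi35 and Ifitm3.

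At 0 h and at 24 h most members shared the same highest and lowest library. Replicate 3 was the lowest of the 0 h libraries for 32 of the 37 members, where it was the lowest for 31.2% of all genes, and replicate 2 was the highest for 30, against 32.9% of all genes. At 24 h, replicate 1 was the highest of its time for 23 members, against 32.9% of all genes, and replicate 3 the lowest for 25, against 30.6%. At 48 h the order was mixed, with replicates 1, 2 and 3 the lowest for 18, 11 and 8 members and the highest for 7, 15 and 15. Over all genes these replicates were the lowest for 31.2%, 31.4% and 30.5% and the highest for 32.2%, 34.5% and 31.6%. The median at 24 h against 0 h was 0.25 without 0 h replicate 3, 0.62 without 0 h replicate 2 and 0.27 without 24 h replicate 1. The markers of liver endothelial cells (18 of 20), Kupffer cells (9 of 10) and neutrophils (8 of 14) also lay without overlap above 0 h at 24 h, with 1 endothelial marker called, and the part of these cells in the members' levels was not tested.

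For 48 h against 0 h, with the 8 and 3 calls given above, the median of the members was 0.15, and -0.04 over all genes. The 48 h libraries lay without overlap above those of 0 h for 9 members, or 24.3%, where 16.5% of all genes did so, and below for 3, or 8.11%, against 19.7% of all genes. DESeq2 called 10 members higher, where it called 13.4% of all genes, and 4 lower, against 11.8%. limma-voom called 8 higher, against 9.28% of all genes, and 3 lower, against 10.1%. Without 0 h replicate 2 the median was 0.67 and 0 members were called lower, and without 0 h replicate 1 or 48 h replicate 2 only 1 was.

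For 48 h against 24 h, 4 of 37 members were called higher, or 10.8%, against 10.2% of all genes tested, and 7 lower, or 18.9%, against 9.6%. Ifi27, Ifi44, Ifit3 and Ifit3b were higher, and Ifi35, Ifitm3, Isg15, Oas1a, Oas2, Trim30a and Zbp1 lower. The median was -0.04, and 0.05 over all genes. The 48 h libraries lay without overlap above those of 24 h for 6 members, or 16.2%, against 17.2% of all genes, and below for 10, or 27.0%, against 18.4%. Without 24 h replicate 1 or 2 the test called 3 members lower, and without 0 h replicate 1 it called 4, and the median was 0.14 without 24 h replicate 1.

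The direction at 48 h depends on what the libraries are scaled to. With the 13 macrophage markers held level in place of most genes, the median of all genes tested moved to -0.19 for 24 h against 0 h, to 1.48 for 48 h against 0 h and to 1.72 for 48 h against 24 h. The members then had medians of 1.73 and 1.68, with 32 and 29 called higher and 0 called lower in either. On this scale the test called 50.3% and 57.8% of all genes higher in these comparisons, and 1.98% and 2.09% lower. Relative to that shift the members' medians were 0.25 and -0.04. Values given relative to all genes stay near the TMM estimates, because a change of scale moves all genes nearly alike. They are therefore not a second test of a rise or fall. The fitted falls of Oas1a and Oas2 at 48 h against 0 h became log2 fold changes of 0.39 and 0.42 on this scale, or -1.09 and -1.06 relative to all genes, while Ifitm3 was at -0.17, or -1.65 relative to all genes. The 8 members called higher were called higher on this scale too, but a shift up of most genes favours such calls and so does not test them. Upper-quartile factors moved the median of all genes to -0.19 at 48 h against 0 h.

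**Figure D3:**
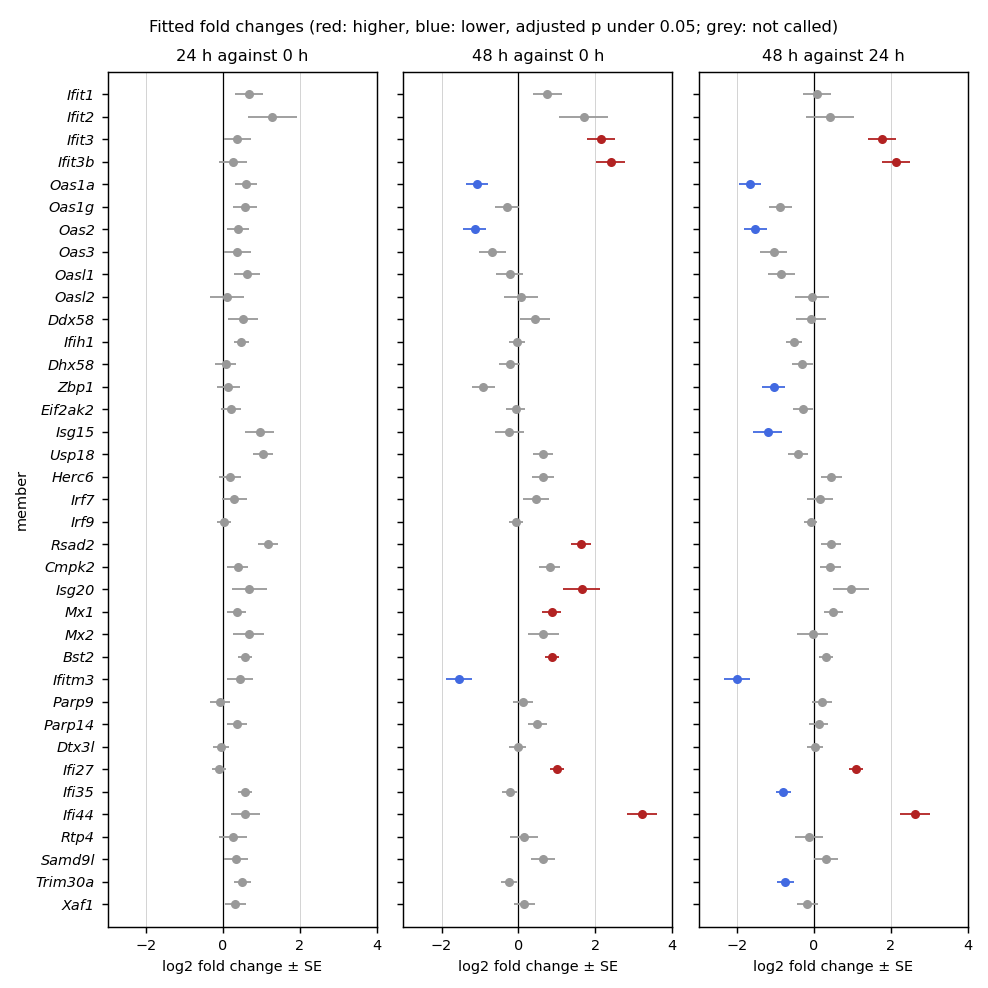
Fitted log2 fold change with its standard error for each of the 37 members in the 3 comparisons, in red where called higher, blue where called lower and grey where not called, with libraries scaled by TMM. At 24 h against 0 h nearly all points are right of 0 and grey, and at 48 h the IFIT genes and Ifi44 are to the right and Ifitm3, Oas1a and Oas2 to the left. Of the falls, Oas1a and Oas2 (against 0 h) and Oas2, Isg15, Zbp1, Ifi35 and Trim30a (against 24 h) have estimates above 0 with libraries scaled on macrophage markers. All of these lie below the median of all genes on that scale, 1.48 against 0 h and 1.72 against 24 h, as a change of scale moves all genes nearly alike.

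The IFIT genes encode proteins of tetratricopeptide repeats that bind viral RNA and block its translation. Of the 4 members, 2 were called higher at 48 h against both earlier times, and all 4 had estimates above 0 in all 3 comparisons (3 of 4 at 48 h against 24 h with upper-quartile factors). Ifit3 (ENSMUSG00000074896) had 14.8, 21.7 and 9.0 CPM at 0 h, 27.8, 19.1 and 12.3 CPM at 24 h, and 64.8, 57.2 and 79.6 CPM at 48 h. All 3 libraries at 48 h stood above all 6 earlier ones, and the 0 h and 24 h libraries overlapped. The log2 fold change was 2.15 ± 0.36 (standard error) at 48 h against 0 h (4.43-fold, adjusted p = 0.00212 from edgeR) and 1.77 ± 0.36 against 24 h (adjusted p = 0.00602). Ifit3b (ENSMUSG00000062488) had 4.58, 2.93 and 2.31 CPM at 0 h, 5.62, 3.77 and 2.41 CPM at 24 h, and 14.7, 20.4 and 16.9 CPM at 48 h. It showed the same order, with a log2 fold change of 2.40 ± 0.37 against 0 h (5.29-fold, adjusted p = 0.00132) and 2.14 ± 0.37 against 24 h (adjusted p = 0.00257). Of the stretches of 100 bases in their transcripts (GENCODE vM21), 31.7% of those of Ifit3 and 27.4% of those of Ifit3b occur in the other gene, so that reads may have been split between them. Both held their calls under all 20 alternatives. Ifit1 and Ifit2 were not called in any comparison. Ifit1, which recognises RNA caps that lack methylation, averaged 9.46 ± 4.49 CPM (SD, n = 3) at 0 h, 15.2 ± 1.38 CPM at 24 h and 15.96 ± 5.21 CPM at 48 h. Ifit2 had 17.0 and 14.6 CPM in replicates 1 and 2 at 48 h but 2.28 CPM in replicate 3, which lay within the 0 h range of 1.55 to 5.32 CPM. DESeq2 called it higher at 48 h against 0 h (adjusted p = 0.0266), where edgeR gave an adjusted p of 0.0959.

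Ifi44 (ENSMUSG00000028037), which encodes a GTP-binding-like protein found in interferon-treated cells, showed the largest fitted fold changes of the 37 members at 48 h against 0 h and against 24 h. It was listed at 1.62, 1.803 and 1.25 CPM at 0 h, at 1.37, 3.22 and 2.41 CPM at 24 h and at 9.41, 17.5 and 16.5 CPM at 48 h. The 48 h libraries were all above the 6 others, and replicate 1 was the lowest of them. Fitted log2 fold changes were 3.21 ± 0.40 at 48 h against 0 h (9.27-fold, adjusted p = 0.000327 from edgeR) and 2.63 ± 0.39 against 24 h (6.19-fold, adjusted p = 0.000979). Ifi27 (ENSMUSG00000064215), a small hydrophobic membrane protein of mitochondria, had an estimate of -0.10 ± 0.18 at 24 h against 0 h. It stood at 60.7, 67.8 and 62.6 CPM at 0 h, 52.4, 52.6 and 73.8 CPM at 24 h and 131, 134 and 116 CPM at 48 h. No library at 48 h overlapped those of either earlier time, with log2 fold changes of 0.99 ± 0.18 against 0 h (1.99-fold, adjusted p = 0.00377) and 1.09 ± 0.18 against 24 h (2.13-fold, adjusted p = 0.00222). Both genes kept their calls under all 20 alternatives in both comparisons.

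**Figure D4:**
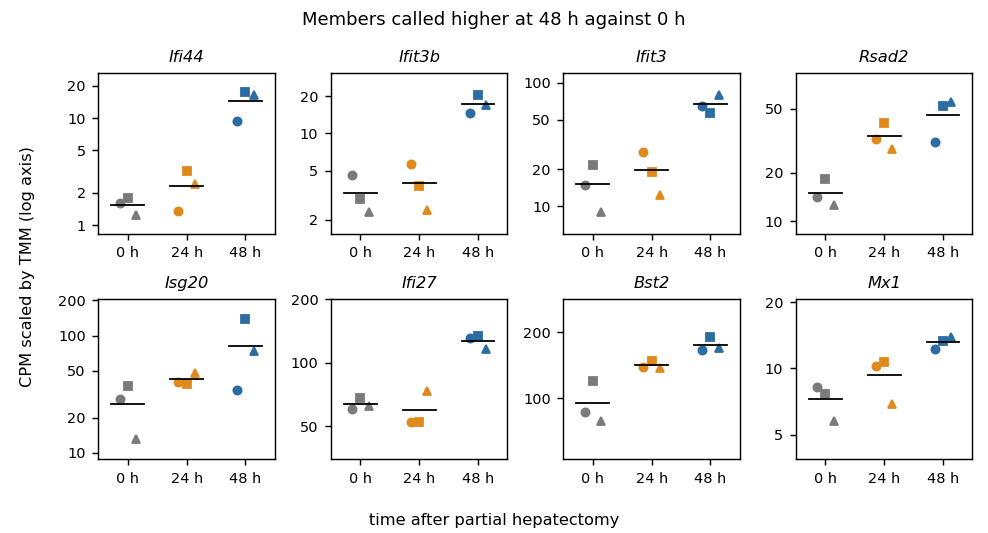
CPM (log axis) of the 8 members called higher at 48 h against 0 h, in each library of the 0 h, 24 h and 48 h groups, with a circle, square and triangle for replicates 1, 2 and 3 and a line at the mean of 3 libraries. The 24 h libraries lie above all 0 h libraries for Rsad2, Bst2 and Isg20 and overlap with them for Ifi44, Ifit3, Ifit3b, Ifi27 and Mx1, and for Isg20 the circle at 48 h (34.5 CPM) lies below the highest 0 h library (37.01 CPM).

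The group of enzymes that act on nucleotides and RNA had 2 of 3 members called higher at 48 h against 0 h. Rsad2 (ENSMUSG00000020641) encodes viperin, which makes a chain-terminating nucleotide that stops viral polymerases. Its levels were 14.02, 18.2 and 12.5 CPM at 0 h, 32.6, 40.7 and 27.9 CPM at 24 h and 30.9, 51.8 and 55.5 CPM at 48 h. All libraries at 24 h and at 48 h exceeded all those at 0 h, and the 24 h and 48 h libraries overlapped. Its log2 fold change was 1.63 ± 0.26 at 48 h against 0 h (3.09-fold, adjusted p = 0.00172 from edgeR), which held under all 20 alternatives, and 1.18 ± 0.26 at 24 h against 0 h (adjusted p = 0.165). Rsad2 had the smallest p of the members at 24 h (unadjusted p = 0.00099). Isg20 (ENSMUSG00000039236), a 3′ to 5′ exonuclease, had 28.7, 37.01 and 13.2 CPM at 0 h, 40.3, 38.8 and 48.0 CPM at 24 h and 34.5, 138 and 74.0 CPM at 48 h. The 48 h libraries were far apart, and replicate 1 lay inside the 0 h range. The log2 fold change was 1.64 ± 0.47 at 48 h against 0 h (adjusted p = 0.0347), and the call was lost without 0 h replicate 1 or 3, 24 h replicate 1, or 48 h replicate 2 or 3 (adjusted p between 0.05001 and 0.106). Cmpk2, the neighbour of Rsad2 and a kinase that supplies its nucleotides, averaged 16.4 ± 3.85 CPM (SD, n = 3) at 48 h and 9.35 ± 1.62 CPM at 0 h, without overlap of the libraries (adjusted p = 0.0572, and 0.0187 by DESeq2).

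Bst2 encodes tetherin, which anchors budding virions to the cell, and Ifitm3 a membrane protein that blocks fusion of incoming virus. These 2 membrane proteins moved in opposite directions at 48 h with libraries scaled by TMM. Bst2 (ENSMUSG00000046718) had 86.2, 120.1 and 79.1 CPM at 0 h, 139, 148 and 137 CPM at 24 h and 166, 189 and 169 CPM at 48 h. The 3 times formed 3 steps that did not overlap. Its log2 fold change was 0.87 ± 0.19 at 48 h against 0 h (1.83-fold, adjusted p = 0.00946 from edgeR), 0.57 ± 0.19 at 24 h against 0 h (adjusted p = 0.446) and 0.30 ± 0.19 at 48 h against 24 h (adjusted p = 0.301). The call at 48 h against 0 h held under all 20 alternatives.

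Ifitm3 (ENSMUSG00000025492) held 59.1% to 90.2% of the summed CPM of the 37 members in a library. It was at 10662, 10468 and 7311 CPM at 0 h, at 16027, 11425 and 11282 CPM at 24 h and at 4925, 2166 and 2582 CPM at 48 h. Every 24 h library was above, and every 48 h library below, all of those at 0 h. The log2 fold change was -1.56 ± 0.34 at 48 h against 0 h (adjusted p = 0.00943 from edgeR) and -2.00 ± 0.34 against 24 h (adjusted p = 0.00242). Without 0 h replicate 2 the call against 0 h was just lost (adjusted p = 0.0505). The macrophage markers had a median of -1.62 at 48 h against 0 h and -1.64 against 24 h, and with libraries scaled on them Ifitm3 was at -0.17 (adjusted p = 0.57) and -0.47 (adjusted p = 0.115), or -1.65 and -2.19 relative to all genes. The part of macrophage number in this fall was not tested. The other 36 members summed to 1340.4, 1501 and 1495 CPM in the 48 h libraries, against 1158, 1529 and 879 CPM in the 0 h libraries.

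Mx1 and Mx2 belong to a family of dynamin-like GTPases that trap viral ribonucleoproteins. Whether they yield working proteins in the C57BL/6 mice used was not looked at here. Mx1 (ENSMUSG00000000386), the nuclear one in mice, had 8.26, 7.63 and 5.79 CPM at 0 h, 10.3, 10.7 and 6.89 CPM at 24 h and 12.2, 13.4 and 13.8 CPM at 48 h. The 48 h libraries lay above all others and close together. The fitted log2 fold change was 0.86 ± 0.25 at 48 h against 0 h (1.82-fold, adjusted p = 0.0361 from edgeR), and it was not called without any 1 of the 0 h libraries or without 48 h replicate 3 (adjusted p between 0.0597 and 0.138). Mx2 was not called in any comparison, with estimates of 0.67, 0.64 and -0.03 for 24 h against 0 h, 48 h against 0 h and 48 h against 24 h.

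The OAS family senses double-stranded RNA. Oas1a, Oas1g, Oas2 and Oas3 belong to the synthetases, and Oasl1 and Oasl2 are the OAS-like members. With libraries scaled by TMM all 6 had estimates above 0 at 24 h against 0 h (0.10 to 0.62, none called) and below 0 at 48 h against 24 h (-1.67 to -0.04, 2 called and 4 without overlap), where 5 of 6 and 1 of 6 had these signs with libraries scaled on macrophage markers. On that scale their median at 48 h against 24 h was 0.71, below the 1.72 of all genes. Oas1a (ENSMUSG00000052776) had 130.04, 198 and 85.4 CPM at 0 h, 231, 202 and 191 CPM at 24 h and 81.2, 51.1 and 64.2 CPM at 48 h. The 48 h libraries lay below all 6 others, and 0 h replicate 2 reached into the 24 h range. Its log2 fold change was -1.67 ± 0.30 at 48 h against 24 h (adjusted p = 0.00304 from edgeR), and -0.05 with libraries scaled on macrophage markers (-1.77 relative to all genes). Against 0 h it was -1.07 ± 0.29 (adjusted p = 0.0271), a call lost without 0 h replicate 1 or 2, any 1 of the 24 h libraries, or 48 h replicate 2 or 3 (adjusted p between 0.0516 and 0.146), and of the other sign (0.39, or -1.09 relative to all genes) with libraries scaled on macrophage markers. Oas1a shares 40.9% of its stretches of 100 bases with Oas1g, and Oas1g 31.3% of its own with Oas1a, so reads may have been split between these as well. Oas1g was not called (adjusted p = 0.0719 at 48 h against 24 h), with means of 24.6 ± 6.78 CPM (SD, n = 3) at 48 h and 45.1 ± 2.70 CPM at 24 h.

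Oas2 (ENSMUSG00000032690) stood at 16.3, 14.4 and 9.24 CPM at 0 h, at 20.1, 13.96 and 18.1 CPM at 24 h and at 5.68, 4.51 and 7.92 CPM at 48 h. All 48 h libraries were below all others, with log2 fold changes of -1.14 ± 0.29 against 0 h (adjusted p = 0.022 from edgeR) and -1.52 ± 0.30 against 24 h (adjusted p = 0.00504), which became 0.42 and 0.17 with libraries scaled on macrophage markers, or -1.06 and -1.55 relative to all genes. The call against 0 h was lost without 0 h replicate 1 or 2 or 48 h replicate 1 or 2 (adjusted p between 0.051 and 0.115). Oas3 averaged 11.8 ± 3.03 CPM at 48 h, against 24.5 ± 8.92 CPM at 24 h (adjusted p = 0.0625). Oasl1 and Oasl2, of which Oasl1 is known to hold back translation of Irf7 mRNA, were not called in any comparison. Oasl2 ranged from 25.6 to 91.5 CPM among the 24 h libraries alone.

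**Figure D5:**
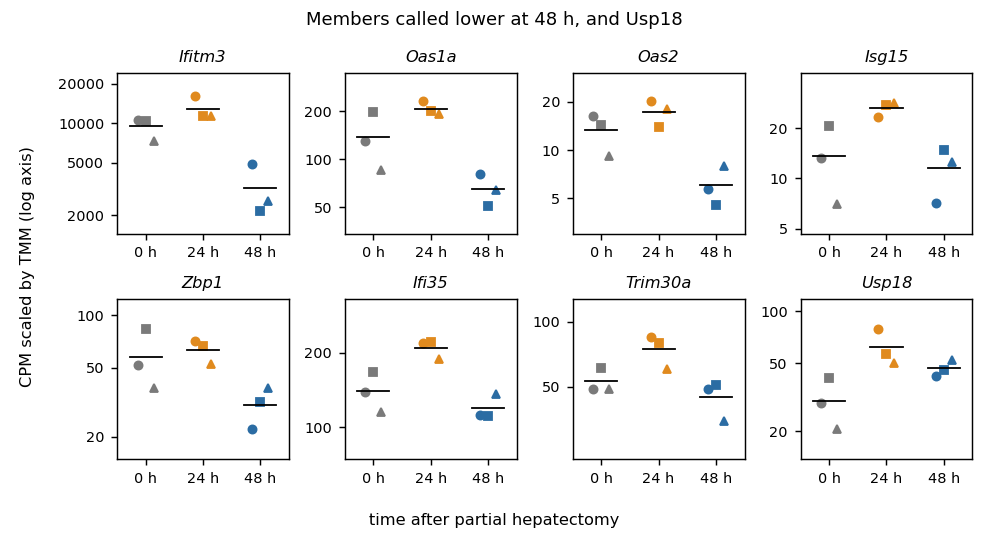
CPM (log axis) of the 7 members called lower at 48 h with libraries scaled by TMM, and of Usp18, in each library of the 0 h, 24 h and 48 h groups, with a circle, square and triangle for replicates 1, 2 and 3 and a line at the mean of 3 libraries. The means are highest at 24 h for all 8 genes, and for Ifitm3, Oas1a and Oas2 the 48 h libraries lie below every other library (with libraries scaled on macrophage markers the fold changes of Oas2, Isg15, Zbp1, Ifi35 and Trim30a at 48 h against 24 h are above 0, but below the median of all genes on that scale, 1.72).

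ISG15 is a ubiquitin-like protein that is joined to other proteins during the response, USP18 removes it and also blocks IFNAR2, and HERC6 is the main ligase for it in mice. Isg15 (ENSMUSG00000035692) had 13.2, 20.5 and 6.998 CPM at 0 h, 23.2, 27.5 and 28.4 CPM at 24 h and 7.09, 14.8 and 12.5 CPM at 48 h. The 24 h libraries lay above all the others, and those of 0 h and 48 h overlapped. The log2 fold change was 0.96 ± 0.38 at 24 h against 0 h (adjusted p = 0.595 from edgeR) and -1.20 ± 0.38 at 48 h against 24 h (adjusted p = 0.0481). That call was lost without 0 h replicate 1, any 1 of the 24 h libraries, or 48 h replicate 1 or 3 (adjusted p between 0.0822 and 0.14), and the estimate was 0.61 with libraries scaled on macrophage markers (-1.12 relative to all genes). Usp18 (ENSMUSG00000030107) had 29.1, 40.7 and 20.7 CPM at 0 h, 78.8, 56.7 and 49.96 CPM at 24 h and 42.2, 45.7 and 52.0 CPM at 48 h. All libraries at 24 h and at 48 h were above those at 0 h. edgeR called it in no comparison, with log2 fold changes of 1.04 ± 0.26 at 24 h against 0 h (adjusted p = 0.253) and 0.63 ± 0.26 at 48 h against 0 h (adjusted p = 0.128). Herc6 had estimates of 0.19, 0.64 and 0.45 for 24 h against 0 h, 48 h against 0 h and 48 h against 24 h, with none called, and 13.7% of its exon bases overlap another annotated gene on the same strand.

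The sensors of foreign nucleic acid among the members are Ddx58, which encodes RIG-I, Ifih1, which encodes MDA5, Dhx58, which encodes LGP2, Zbp1, a sensor of Z-form nucleic acid, and Eif2ak2, which encodes the kinase PKR. With libraries scaled by TMM all 5 had estimates above 0 at 24 h against 0 h (0.08 to 0.51) and below 0 at 48 h against 24 h (-1.05 to -0.09, with 1 called), where 3 of 5 and 0 of 5 had these signs with libraries scaled on macrophage markers. On that scale their median at 48 h against 24 h was 1.43, below the 1.72 of all genes. Zbp1 (ENSMUSG00000027514) had 51.9, 82.9 and 38.0 CPM at 0 h, 70.8, 66.7 and 52.5 CPM at 24 h and 22.2, 31.6 and 38.0 CPM at 48 h. Its 48 h libraries lay below all those at 24 h, and the highest of them met the lowest at 0 h. The log2 fold change at 48 h against 24 h was -1.05 ± 0.30 (adjusted p = 0.0321 from edgeR), lost without 0 h replicate 1, any 1 of the 24 h libraries, or 48 h replicate 1 or 2 (adjusted p between 0.0551 and 0.113), and 0.71 with libraries scaled on macrophage markers (-1.01 relative to all genes).

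Ifi35, which forms a complex with NMI, and Trim30a, a TRIM protein that restrains Toll-like receptor signalling in mice, both had their highest mean at 24 h. Ifi35 (ENSMUSG00000010358) was at 139, 167 and 115 CPM at 0 h, at 218, 219.8 and 188 CPM at 24 h and at 112, 111 and 136 CPM at 48 h. The 24 h libraries stood above all 6 others. Its log2 fold change was -0.80 ± 0.19 at 48 h against 24 h (adjusted p = 0.0137 from edgeR), lost on leaving out 24 h replicate 1, 24 h replicate 2 or 48 h replicate 2 (adjusted p between 0.0535 and 0.0607), and 0.90 with libraries scaled on macrophage markers (-0.82 relative to all genes). On the opposite strand, 16.8% of its exon bases overlap another annotated gene, and the sources used here do not say whether the counting used strand. Trim30a (ENSMUSG00000030921) had 48.9, 60.9 and 48.7 CPM at 0 h, 85.5, 79.6 and 60.2 CPM at 24 h and 49.0, 51.0 and 34.5 CPM at 48 h. All 48 h libraries were below all 24 h ones, and the fitted log2 difference was -0.75 ± 0.21 (adjusted p = 0.0334). The call was lost without any 1 of the 0 h libraries, without 24 h replicate 1 or 2 or without 48 h replicate 3 (adjusted p between 0.0504 and 0.142), and the estimate was 0.94 with libraries scaled on macrophage markers (-0.79 relative to all genes).

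The 2 transcription factors among the members, Irf7 and Irf9, were not called in any comparison (Irf1 and Irf5, outside the members, are described below). Irf9, a DNA-binding subunit that joins STAT2, averaged 41.6 ± 0.120 CPM (SD, n = 3) at 0 h, 42.4 ± 8.27 CPM at 24 h and 39.9 ± 2.57 CPM at 48 h. Irf7, the factor that amplifies interferon alpha genes, averaged 59.0 ± 22.2, 72.6 ± 22.3 and 80.8 ± 20.7 CPM at the same times, with libraries that overlapped throughout. Parp9, Parp14 and Dtx3l, which attach ADP-ribose or ubiquitin, had estimates between -0.07 and 0.49 in the 3 comparisons, with none called and no pair of times without overlap. Rtp4, Samd9l and Xaf1 were likewise not called, with estimates between -0.17 and 0.64.

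The genes upstream of the members were looked at in the same libraries, from lists chosen by name. Of 21 interferon genes, 4 had enough counts to test, 0 were called at 24 h or at 48 h against 0 h, and 1 was lower at 48 h against 24 h. Ifnb1, the interferon beta gene, had 3.96, 6.25 and 1.84 CPM at 0 h, 7.997, 11.3 and 18.8 CPM at 24 h and 0.0335, 1.796 and 0 CPM at 48 h. The 3 times did not overlap, with 24 h highest. Its log2 fold change was 1.66 ± 1.17 at 24 h against 0 h (adjusted p = 1 from edgeR), and -4.40 ± 1.33 at 48 h against 24 h (adjusted p = 0.0409), a call that was lost on leaving out any 1 library other than 48 h replicate 2 (adjusted p between 0.0534 and 0.121). Without 48 h replicate 2, which leaves libraries at or near 0, the estimate was -9.19 (adjusted p = 0.00031), and with libraries scaled on macrophage markers it was -2.36 (adjusted p = 0.142). Ifng, the interferon gamma gene, had 169, 0 and 243 counts in the 48 h libraries, against 0, 0 and 51 counts in the 0 h libraries, and Ifna1 had 0 counts in all 48 h libraries, against 16, 4 and 19 in the 24 h libraries. The Ifna genes are near copies of one another, so their counts are uncertain, and Ifnz, the gene of interferon zeta, had 0 to 32 counts in a library.

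Of 16 genes of the receptors and signalling chain, 0 were called at 24 h, and 3 were higher and 2 lower at 48 h against 0 h (12 and 0 with libraries scaled on macrophage markers). On the macrophage marker scale 50.3% of all genes were called higher and 1.98% lower. With TMM the 3 and 2 were 18.8% and 12.5% of the list, against 9.86% and 8.95% of all genes tested. The kinase gene Jak1 was at 211, 249 and 235 CPM in the 48 h libraries, against 73.3, 74.0 and 78.7 CPM in the 0 h libraries, without overlap. Jak1 had a log2 fold change of 1.62 ± 0.16 (3.08-fold, adjusted p = 6.21e-05 from edgeR). Socs1, the feedback inhibitor of JAK1, was also higher (1.49 ± 0.33, adjusted p = 0.00984), as was Irf1, a transcription factor induced by interferon (1.12 ± 0.33, adjusted p = 0.0374), whose call was lost without any 1 of the 0 h libraries, 24 h replicate 3 or 48 h replicate 3 (adjusted p between 0.0518 and 0.131). The receptor genes of interferon gamma, Ifngr1 (-1.0 ± 0.24, adjusted p = 0.0154) and Ifngr2 (-0.71 ± 0.19, adjusted p = 0.027), were lower at 48 h against 0 h, and 0.52 and 0.87 with libraries scaled on macrophage markers, or -0.96 and -0.61 relative to all genes. The call of Ifngr1 rested on 0 h replicates 2 and 3 and 48 h replicate 2, and was lost without any 1 of them (adjusted p between 0.0542 and 0.0598), and that of Ifngr2 was lost without any 1 of the 0 h libraries, 24 h replicate 3 or 48 h replicate 1 or 2 (adjusted p between 0.0506 and 0.0988).
At the type I receptor itself, Ifnar1 averaged 24.9 ± 5.91 CPM (SD, n = 3) at 48 h, against 41.4 ± 4.09 CPM at 24 h. The log2 fold change was -0.73 ± 0.22 (adjusted p = 0.0408), a call lost on leaving out any 1 library other than 0 h replicate 3 or 48 h replicate 3 (adjusted p between 0.0582 and 0.17). With libraries scaled on macrophage markers it was 0.93, or -0.79 relative to all genes. Ifnar2 averaged 120.2 ± 13.6 CPM at 48 h and 104 ± 12.3 CPM at 0 h and was not called. Nor was Stat2 (20.02 ± 8.66 CPM at 48 h, against 14.9 ± 4.53 CPM at 0 h, with an adjusted p of 0.458).

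Of 20 genes of nucleic acid sensing outside the members, 0 were called at 24 h, and 1 was higher and 6 were lower at 48 h against 0 h (8 and 0 with libraries scaled on macrophage markers). On the macrophage marker scale 50.3% of all genes were called higher and 1.98% lower. With TMM the 1 and 6 were 5% and 30% of the list, against 9.86% and 8.95% of all genes tested. The gene that rose was Tlr3, the receptor of double-stranded RNA in endosomes, at 5.54, 6.84 and 10.1 CPM in the 48 h libraries and 1.56, 1.31 and 1.29 CPM in the 0 h libraries (2.43 ± 0.36, adjusted p = 0.000906 from edgeR). Among those that fell with libraries scaled by TMM were Tlr13, a receptor of bacterial ribosomal RNA (-2.39 ± 0.33, adjusted p = 0.000581), Ikbke, the kinase IKK epsilon (-1.81 ± 0.23, adjusted p = 0.000387), Tlr7, a receptor of single-stranded RNA (-1.78 ± 0.46, adjusted p = 0.0219), Myd88, the adaptor of both receptors (-1.03 ± 0.20, adjusted p = 0.00475), and Irf5, a factor that acts below it (-0.98 ± 0.26, adjusted p = 0.0256). None of these 5 was called lower on the macrophage marker scale, where Tlr13 was at -0.91 (adjusted p = 0.0547), Ikbke at -0.33 (adjusted p = 0.458), Tlr7 at -0.41 (adjusted p = 0.457) and Myd88 and Irf5 at 0.53 and 0.53. In the same order they lay at -2.39, -1.81, -1.89, -0.95 and -0.95 relative to all genes. Without any 1 of 0 h replicates 1 and 3 and 48 h replicates 2 and 3, Tlr7 was no longer called (adjusted p between 0.0626 and 0.103), and without any 1 of 0 h replicates 1 and 2 and 48 h replicates 2 and 3 nor was Irf5 (adjusted p between 0.0778 and 0.111). At 48 h against 24 h, 1 of the 20 was higher and 4 lower, or 5% and 20%, against 10.2% and 9.6% of all genes tested.

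The GTPases of the GBP and IRG families, which attack vacuoles of intracellular pathogens and respond above all to interferon gamma, were called in 1 direction only. Of 18 tested, 9 were higher at 48 h against 0 h and 11 against 24 h, 0 were lower in either under any of the 4 scalings, and 0 were called at 24 h against 0 h, where 2 were lower and 0 higher at an unadjusted p under 0.05. At that unadjusted p 2.72% of all genes were lower and 3.89% higher. With TMM the 9 and 11 were 50% and 61.1% of those tested, against 9.86% and 10.2% of all genes. In these 2 comparisons 8.95% and 9.6% of all genes were called lower. Gbp4 had 17.7, 23.1 and 27.1 CPM in the 48 h libraries, against 2.22, 4.74 and 2.13 CPM in the 0 h libraries (log2 fold change 2.90 ± 0.36, adjusted p = 0.000298 from edgeR). Iigp1 had 22.8, 41.6 and 40.3 CPM at 48 h, against 6.92, 5.43 and 8.80 CPM at 0 h (2.31 ± 0.28, adjusted p = 0.000278), and Tgtp1 and its neighbour Tgtp2 had log2 fold changes of 3.05 ± 0.39 and 3.00 ± 0.49. Gbp2 and Gbp7 were higher by 1.64 ± 0.32 and 1.18 ± 0.26. Tgtp1 and Tgtp2 are near copies, and reads may have been split between them. A list of 79 ISGs outside the members also holds Gbp2, Gbp3 and Gbp7. Gbp2 and Gbp7, called higher at 48 h against both earlier times, are thus counted as higher in both lists. Of the 79, 9 were higher and 13 lower at 48 h against 0 h, with a median of 0.10, and 10 were higher and 18 lower against 24 h (58 and 2, and 55 and 2, with libraries scaled on macrophage markers). With TMM these were 11.4% and 16.5% against 0 h, where 9.86% and 8.95% of all genes were called. Against 24 h they were 12.7% and 22.8%, where 10.2% and 9.6% of all genes were. On the macrophage marker scale 50.3% and 57.8% of all genes were called higher, and 1.98% and 2.09% lower. Tnfsf10, the death ligand TRAIL, was the one with the smallest p among those of the 79 that rose (2.93 ± 0.29, adjusted p = 8.16e-05). Ifitm1 (-3.26 ± 0.38, adjusted p = 0.000231), Ms4a6d (-3.22 ± 0.44, adjusted p = 0.000629), Slfn2 (-1.67 ± 0.33, adjusted p = 0.00555) and Ifi30 (-1.56 ± 0.25, adjusted p = 0.00159) were lower with libraries scaled by TMM, and on the macrophage marker scale Slfn2 (-0.21, adjusted p = 0.60) and Ifi30 (-0.14, adjusted p = 0.715) were no longer called. Relative to all genes Slfn2 and Ifi30 were at -1.69 and -1.62 on that scale. Ms4a6d and Ifi30 are abundant in myeloid cells.

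Each of these changes at 48 h stands beside the rise of endothelial, B cell, T and NK cell and dendritic cell markers and the fall of the general macrophage markers given above. Of the 10 Kupffer cell markers, 5 were called higher and 0 lower against 0 h, with 3 above without overlap. Against 24 h 1 of them was called higher and 1 lower. The part of the mixture of cells in the level of any member was not tested.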

How the data were processed

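RNA of F4/80 and CD11b positive liver macrophages was sequenced in 9 libraries, 3 for each time from PHx (0, 24 and 48 h), grouped by the time in their labels. The authors deposited 1 table of whole-number values per Ensembl gene and library, which are treated as estimated counts because multiples of 4 made up 40.9% to 47.6% of values between 4 and 40 in a library, which no source explains, so a unit is not 1 fragment. Tools named in the submitters' processing notes are CASAVA 1.8, HISAT2 2.0.5 and featureCounts 1.5.0-p3. The genome build, the annotation and the strand setting were not given in the sources used here. A mouse name table gave symbols for 52073 of the 56691 IDs. No library was a copy of another of the same time.

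Genes were filtered with filterByExpr (minimum count 10), scaled by TMM and fitted over all 9 libraries by edgeR 4.0.16 in R 4.3.3 (quasi-likelihood F-test, time as sole factor), with Benjamini-Hochberg adjustment over the 20204 genes. Errors of fold changes are standard errors from this fit, and errors of levels are SDs over 3 libraries. Alternatives were RLE and upper-quartile factors, scaling on 13 macrophage markers, mitochondrial genes left out, no filter, a minimum of 10 counts per library, DESeq2 1.42.0, limma-voom (limma 3.58.1), a fit of only the 2 times compared, a block for the replicate number, counts divided by 4 and each library left out in turn. Steps were tested on simulated data. Promoter windows are those of RefSeq (GRCm38.p6), the searched motif was written after earlier results were known, and shared sequence was counted in stretches of 100 bases of GENCODE vM21 transcripts.

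The members and all lists were chosen with earlier results of these data known. Named with every library's value were members past the threshold in any comparison, the 4 with the smallest p in each comparison and the 4 with the most counts. From each other pathway list up to 6 genes with the smallest p were named, plus Ifnb1, Ifng, Ifnar1, Ifnar2, Stat2 and Irf1, and 1 further gene is not reported here. Library totals (53297943 to 67951168) add up these units and so do not show the true depth.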

Additional observations from a re-analysis of the deposited data

How the results depend on the processing

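Of the 22 calls of members at 48 h, 10 held under all 20 alternatives, namely Bst2, Ifi27, Ifi44, Ifit3, Ifit3b and Rsad2 higher against 0 h and Ifi27, Ifi44, Ifit3 and Ifit3b higher against 24 h. The falls of Ifitm3, Oas1a and Oas2 against 24 h held under 19 of the 20, all but scaling on macrophage markers. That scaling moves the median of all genes up at 48 h, so it favours calls higher and works against calls lower. Scaling on macrophage markers gave 32 members higher and 0 lower at 48 h against 0 h (median 1.73) and 29 higher and 0 lower against 24 h (median 1.68), where 50.3% and 57.8% of all genes were called higher and the median of all genes moved to 1.48 and 1.72. It reversed, at 48 h against 0 h, Oas1a (0.39), Oas2 (0.42), Ifngr1 (0.52), Ifngr2 (0.87), Myd88 (0.53) and Irf5 (0.53), and at 48 h against 24 h Isg15 (0.61), Oas2 (0.17), Ifi35 (0.90), Zbp1 (0.71), Trim30a (0.94), Ifngr2 (0.98), Ifnar1 (0.93), Myd88 (0.65), Irf5 (0.37) and Ifi30 (0.27). Relative to all genes these lay between -1.55 and -0.61. DESeq2 called 2 members higher at 24 h against 0 h, and with only the 2 times compared 1 was lower at 48 h against 0 h. The cause of these differences was not tested, other than the shift that the macrophage scale makes by its construction.

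Leaving out each library in turn gave 0 members higher and 0 lower at 24 h against 0 h (median 0.25 to 0.62), 6 to 10 higher and 0 to 4 lower at 48 h against 0 h (median 0.00065 to 0.67), and 4 to 5 higher and 3 to 7 lower at 48 h against 24 h (median -0.14 to 0.14). Over all genes tested, same-numbered libraries had correlations between -0.02 and 0.09. These values were centred on only 3 libraries per time, so they cannot exclude that the replicate numbers pair libraries. With the replicate number as a block 0 members were higher and 0 lower at 24 h, 8 and 3 at 48 h against 0 h and 4 and 8 against 24 h. Units of the deposited counts are not fragments, so what depth limits cannot be given, and groups of 3 libraries set the precision.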
